A study of Mus musculus with 4 samples.

Results

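The 10 genes described here encode transcription factors of the ETS family: Elf1, Elf2, Elf3, Elf4, Elf5, Ehf, Spdef, Ets1, Ets2 and Etv5. Their probe sets were those of the array whose gene symbol in the platform annotation is exactly one of these names, which gave 25 of 45037 probe sets, 8 for the 4 epithelium-restricted factors (Elf3, Elf5, Ehf and Spdef) and 17 for the 6 broadly expressed ones. The samples are total RNA of mouse mammary tissue on 4 Affymetrix arrays, 2 labelled STAT5 WT and 2 labelled STAT5 KO, and the design text speaks of 2 mice for each genotype. The tissue was taken at 6 days, from a starting point that the text does not name. The labels list no drug or hormone treatment (the field reads none). Strain, age, the deleted exons and the means of deletion are not given in the sources used here, so it is not known in which cells STAT5 was removed. Nothing beyond the design text says that the samples are separate animals. The p-values set the genotype difference against the spread within the 2 samples of each genotype, in part shared across probe sets. They speak for these 4 samples only.

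ETS factors bind DNA through a conserved ETS domain that reads a GGAA core. Most mammalian cells hold several of them. A small branch is largely restricted to epithelia: Elf3, Elf5 and Ehf form the epithelium-specific (ESE) group, and Spdef is found in secretory and hormone-responsive epithelia. In the mammary gland Elf5 is known as a regulator of the secretory alveolar lineage, acting downstream of the prolactin receptor and the STAT5 proteins. Elf1, Elf2 and Elf4 make up a related branch that is widely expressed, with prominent roles in blood cells. Ets1 is abundant in lymphocytes, endothelium and stroma, Ets2 is found in many tissues, and Etv5, of the PEA3 group, responds to fibroblast growth factor and ERK signalling.

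Among these factors Elf5 and Ehf fell in KO tissue, and Elf3, Spdef and the broadly expressed members did not pass the test in either direction. Elf5 stood at 46.7% and Ehf at 30.3% of the WT mean signal at their brightest probe sets. The calls came from 2 probe sets of Elf5 and 3 of Ehf, of which the dimmest Ehf probe set reached the brightness limit of the test only through WT. A probe set was tested where its mean log2(signal + 16) over the 4 arrays reached the median of all probe sets (7.15, a signal of 126). It was called at an adjusted p under 0.05 in limma, adjusted by Benjamini-Hochberg over the 22519 that were tested. Of the 25 member probe sets 21 were tested, and each of the 10 genes had at least 1 tested probe set. The calls numbered 5 lower and 0 higher. Over all tested probe sets 1.04% were called lower and 0.955% higher. A log2 difference of -1 or lower was reached by the same 5 probe sets and by 2.38% of all tested probe sets. An unadjusted p under 0.05 was found for 9 of the 21 member probe sets and for 19.6% of all. Probe sets of the same gene are not separate members, and by brightest probe set it was found for 3 of the 10 genes. The 9 include the dimmest tested Ehf and Ets1 probe sets, which reached the brightness limit only through WT. All differences are on the log2(signal + 16) scale, which understates those of dim genes.

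**Figure D1:**
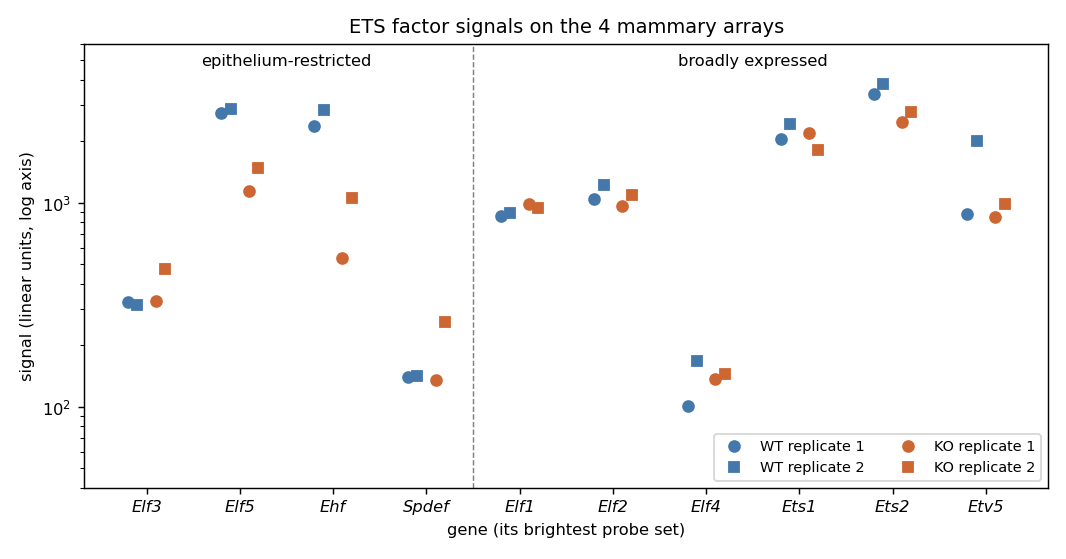
Signal on each of the 4 arrays (log axis, linear signal units) for the brightest probe set of each ETS gene, with WT in blue, KO in orange, replicate 1 as circles and replicate 2 as squares. For Elf5 and Ehf both KO points lie below both WT points, whereas for Etv5 WT replicate 2 alone lies apart, at 2013.

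Elf5 is the member whose promoter sequences can be set beside a measured fall. RefSeq (GRCm38.p6) lists its start sites in the windows chr2:103411848-103412097 and chr2:103423818-103424067, both on the plus strand. These are the 250 bases before each start, 5′ to 3′, with the GGAA core on either strand in capitals (TTCC where it lies on the other strand). The windows of Elf3 (chr1:135258473-135258722, minus strand) and Spdef (chr17:27728952-27729201, minus strand) are shown with them, as the restricted factors whose transcripts did not pass.
Elf5, upstream start: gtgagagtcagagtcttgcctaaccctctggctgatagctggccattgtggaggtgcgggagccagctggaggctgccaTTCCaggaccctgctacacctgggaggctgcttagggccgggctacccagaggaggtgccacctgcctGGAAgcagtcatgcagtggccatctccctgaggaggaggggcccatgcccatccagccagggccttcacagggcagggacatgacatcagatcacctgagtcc
Elf5, downstream start: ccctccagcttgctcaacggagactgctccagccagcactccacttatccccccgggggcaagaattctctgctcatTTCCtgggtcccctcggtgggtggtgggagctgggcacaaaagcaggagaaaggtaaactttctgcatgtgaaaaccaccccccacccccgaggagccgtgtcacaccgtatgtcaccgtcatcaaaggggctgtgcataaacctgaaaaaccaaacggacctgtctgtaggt
Elf3: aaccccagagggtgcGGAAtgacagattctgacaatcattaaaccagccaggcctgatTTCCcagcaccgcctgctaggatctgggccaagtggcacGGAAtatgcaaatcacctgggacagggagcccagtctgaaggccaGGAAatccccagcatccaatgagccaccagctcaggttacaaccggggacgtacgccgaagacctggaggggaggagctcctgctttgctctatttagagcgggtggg
Spdef: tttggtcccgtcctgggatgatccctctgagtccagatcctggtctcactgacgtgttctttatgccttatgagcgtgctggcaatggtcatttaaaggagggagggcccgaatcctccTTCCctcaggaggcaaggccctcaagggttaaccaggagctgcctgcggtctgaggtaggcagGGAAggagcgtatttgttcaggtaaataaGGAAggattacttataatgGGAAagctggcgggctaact

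The core occurs 2 times in the upstream Elf5 window, 1 time in the downstream one, 4 times in that of Elf3 and 4 times in that of Spdef. It is present in 93.4% of all 32851 promoter windows of this length, with a median of 3 matches, so its presence is the common state. The longer ETS sequence CCGGAAGT was in 0 of the 13 windows of member genes and in 2.88% of all windows. The palindromic letters TTCNNNGAA, which STAT5 is known to bind, were in 1 of the 13 member windows, against 7.02% of all, and neither Elf5 window holds them. That window belongs to Elf2 (chr3:51277515-51277764, minus strand), whose transcript did not pass, and it also holds the same letters with a spacer 1 base longer, present in 5.85% of all windows. Both are in capitals here. Each of these matches contains a GGAA or TTCC core as well.
Elf2: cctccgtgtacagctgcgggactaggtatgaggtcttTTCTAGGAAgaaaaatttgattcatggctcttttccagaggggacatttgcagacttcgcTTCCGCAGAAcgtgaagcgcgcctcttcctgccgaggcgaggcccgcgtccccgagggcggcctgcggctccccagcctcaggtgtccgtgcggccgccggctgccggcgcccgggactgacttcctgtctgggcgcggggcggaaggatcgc

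These are letter matches in short windows, not measured sites. Promoter windows were matched for 8 of the 10 genes (Elf1, Elf2, Elf3, Elf4, Elf5, Spdef, Ets2 and Etv5). Those of Ehf and Ets1 were not used here.

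The arrays were alike in technical measures, and the tissue carried the markers of a mammary gland. The 3′ to 5′ signal ratio was 1.12 to 1.21 for actin and 0.771 to 0.799 for Gapdh. Pearson's r across probe sets, a description and no test, was 0.981 within WT, 0.980 within KO, and 0.968 to 0.973 for arrays of different genotype. Stat5a and Stat5b, the genes the label refers to, still gave signal on both KO arrays. At the brighter Stat5a probe set KO replicate 1 stood at 84.1% and KO replicate 2 at 39.4% of the WT mean, and at the other at 60.2% and 29.1%. All 4 probe sets of both genes were lower on both KO arrays, with differences of -0.78 to -1.22, and none passed (smallest limma adjusted p = 0.102). Which part of the genes was deleted is not known, so these probe sets may lie outside it and then check nothing. In all 450 probe sets were called, a count that was 157 without WT replicate 1, 67 without WT replicate 2 and 1021 without KO replicate 2. Of the 450, 47.8% were higher in KO, a share that was 62.4% when arrays were set to a common median and 79.9% when they were set to a common level of epithelial markers. General epithelial markers, a list of 28 genes that holds no ETS gene, had 27 tested, of which 0 were called lower and 1 higher. Their median difference was -0.40 (-0.67 on KO replicate 1 and -0.21 on KO replicate 2). Both KO arrays lay below both WT arrays for 16 of the 27 and above them for 2. Over all 11360 tested genes this held for 3128 and 2975. Summed, the signal of the 28 markers came to 58503 and 61387 in WT and to 41389 (replicate 1) and 64185 (replicate 2) in KO. Skeletal muscle markers had a summed signal of 3618 and 1667 in WT and of 13421 and 7429 in KO. The 5 of them that were called (of 11 tested, 0 lower) reached the test's limit only through KO.

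Elf5, the alveolar regulator, gave signals of 2756 and 2866 on the WT arrays and of 1146 and 1482 on the KO arrays at its brighter probe set (1419555_at). Both KO arrays lay below both WT arrays, and the WT arrays differed by only 0.06 on the log2 scale. The log2 difference was -1.10 with an SE of 0.16 and a 95% interval of -1.48 to -0.72 (limma adjusted p = 0.0324). The other Elf5 probe set (1419556_at) read 1218 and 1368 in WT and 489 and 674 in KO. It differed by -1.15 (SE 0.19, limma adjusted p = 0.0423), close to the first. Without WT replicate 1 neither probe set passed (adjusted p = 0.0855 and 0.0966), nor without WT replicate 2 (0.160 and 0.203), and the differences were then between -1.23 and -1.06. In whole tissue, fewer cells that express a gene and less of its RNA per cell cannot be told apart, here or for any other member. The KO array with the lower Elf5 signal, replicate 1, was the one with the higher Stat5a signal (1836 against 861). That array also had the lower mean of epithelial markers (-0.64 against -0.08, relative to WT). After the centring on these markers described below, the order for Elf5 was reversed (-0.64 on KO replicate 1 and -0.84 on KO replicate 2). A relation between Stat5a and Elf5 levels was not tested.

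Ehf, the ESE factor that is widespread in glandular epithelia, had the lowest KO level relative to WT among the tested members. Its brightest probe set (1451375_at) read 2378 and 2861 in WT and 534 and 1054 in KO. The log2 difference was -1.78 with an SE of 0.30 and an interval of -2.49 to -1.06 (limma adjusted p = 0.0435). The next (1419475_a_at) read 1498 and 2008 against 386 and 567, and differed by -1.86 (limma adjusted p = 0.0237). The dimmest tested one (1419474_a_at) read 458 and 561 against 84.0 and 158, and differed by -1.99 (limma adjusted p = 0.0324). KO replicate 1 was the lower KO array at all 3, as it was for Elf5. Without WT replicate 1 only the one at -1.86 still passed (adjusted p = 0.0474, against 0.0924 and 0.0713 for the others), and without WT replicate 2 none of the 3 did (limma adjusted p = 0.107 to 0.197, differences of -1.85 to -1.64). The remaining Ehf probe set (1447760_x_at) lay between 4.27 and 28.2 on every array, below the test's limit, and carried no usable level. The intervals of Ehf and Elf5 overlap, so a larger fall of Ehf is not shown.

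Elf3, an ESE factor of many lining epithelia, showed no fall. It has 1 probe set (1416916_at), with signals of 326 and 315 in WT and of 331 and 474 in KO. KO replicate 1 lay close to both WT arrays and only KO replicate 2 stood clearly higher. The log2 difference was 0.29 with an interval of -0.21 to 0.80 (limma adjusted p = 0.50). Spdef, a factor of secretory differentiation, behaved alike at its only probe set (1450220_a_at). It read 140 and 141 in WT and 135 and 259 in KO, so 3 arrays lay together and KO replicate 2 apart. The difference was 0.38 with an interval of -0.35 to 1.11 (limma adjusted p = 0.551). Spdef was dim, near the array medians of 121 to 131, and without detection calls its signal cannot be placed above background. Without KO replicate 2 the differences were 0.05 for Elf3 and -0.05 for Spdef. The intervals of both genes lie wholly above -0.72, the upper bound of the Elf5 interval. The difference between these genes and Elf5 or Ehf was not itself tested.

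**Figure D2:**
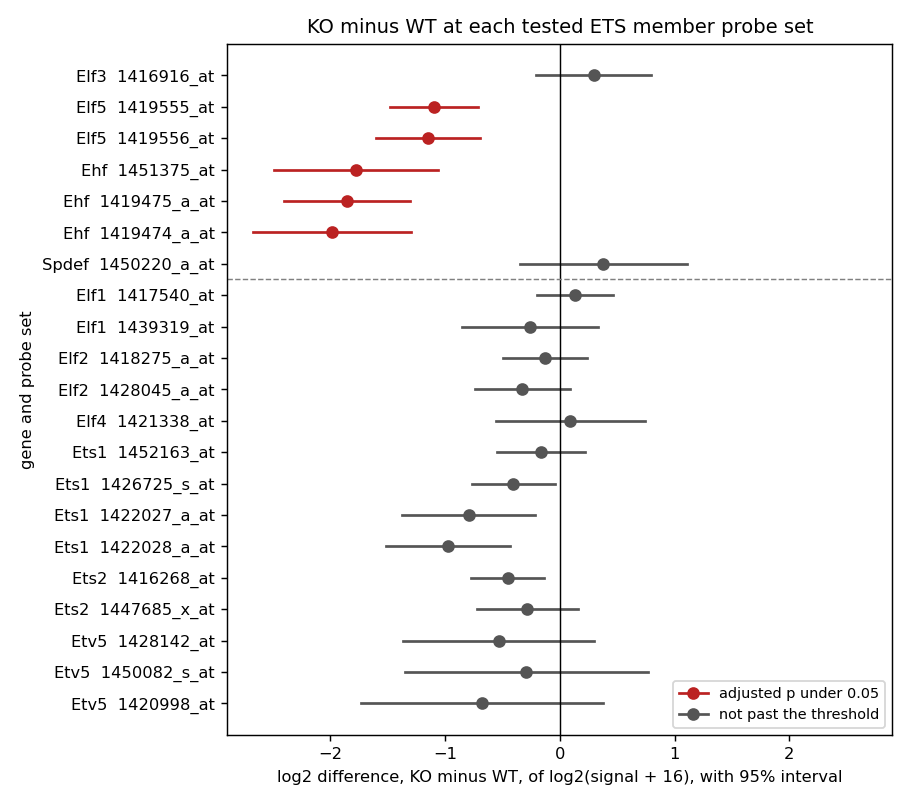
Log2 difference (KO minus WT) with its 95% limma interval for each of the 21 tested member probe sets, the epithelium-restricted genes above the dashed line and the broadly expressed ones below it, red where the adjusted p is under 0.05. The 5 red points are the 2 Elf5 and 3 Ehf probe sets, from -1.10 to -1.99, and no broadly expressed member is red.

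The restricted factors were also set against the epithelial markers, whose mean lay below WT by more than the gap between the WT arrays on KO replicate 1 but not on KO replicate 2. Elf5 lay lower than 25 of the 27 tested markers, the exceptions being the tight junction gene Tjp3 (-1.17) and the protease gene Prss8 (-1.17), named here after their values were seen. Ehf lay lower than all 27. Elf3 lay higher than 23 and Spdef higher than 25 of them, Spdef being exceeded by Cldn4 (0.88) and Krt7 (1.02). When each array was centred on the mean of the 28 markers, which stood at -0.64 on KO replicate 1 and -0.08 on KO replicate 2 relative to WT, the difference of Elf5 was -0.74 with an interval of -1.51 to 0.03 (limma adjusted p = 0.430). Its call was thus lost, with a smaller difference and with an SE of 0.39 against 0.16 before centring. Ehf remained called on this scale at all 3 probe sets, with -1.42 at the brightest (SE 0.39, limma adjusted p = 0.0174). That adjusted p was lower than the 0.0435 before centring, although the difference shrank and the SE rose from 0.30. Centring put the same gap between the KO arrays into every probe set, and the fit counts this gap as independent spread. The p-values on this scale, also those of Elf5, Elf3 and Spdef, thus cannot show whether a gene moved apart from the markers. Elf3 then stood at 0.69 and 0.62, and Spdef at 0.59 and 0.89, on KO replicates 1 and 2. Both genes lay above both WT arrays on this scale, and neither passed (limma adjusted p = 0.486 and 0.450). Centring also brought the KO arrays closer together for Elf5, to -0.64 and -0.84, from -1.28 and -0.92 before it. It moved the median difference of all tested probe sets from -0.03 to 0.33. The part of epithelial content in the falls of Elf5 and Ehf was not tested beyond this centring.

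**Figure D3:**
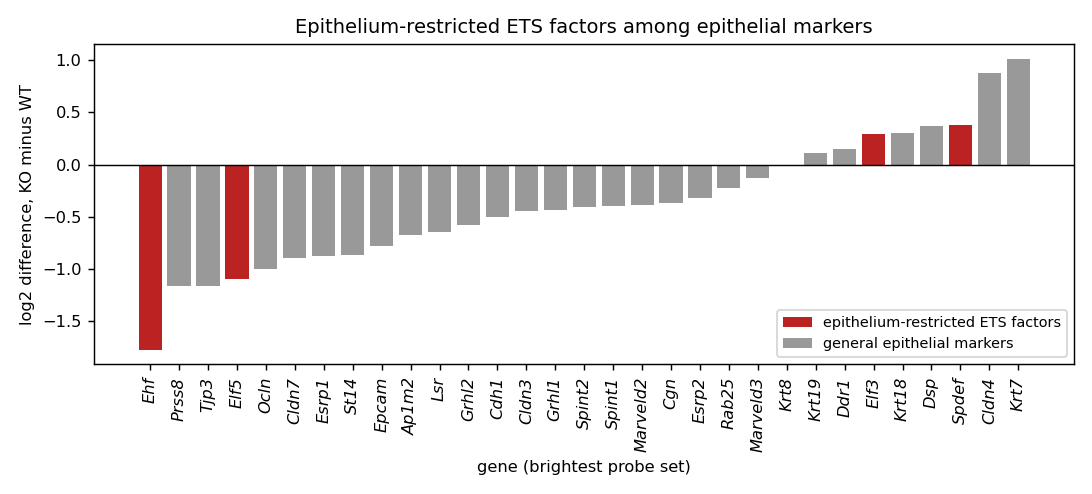
Log2 difference (KO minus WT) of the brightest probe set of each tested general epithelial marker (grey bars) and each epithelium-restricted ETS factor (red bars), in increasing order, with no error bars. Ehf stands at the low end at -1.78 and Elf5 next to Tjp3 and Prss8, while Elf3 and Spdef stand among the few genes above 0.

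As a group the 4 restricted genes did not move together. By brightest probe set 2 fell, 0 rose and 2 did not pass, and their median difference was -0.40, which is also that of the epithelial markers. The 6 broadly expressed genes had 0 calls and a median of -0.15, beside -0.01 for all 11360 tested genes, of which 1.36% were called lower and 1.21% higher. The difference of the medians was -0.25, with -0.55 on KO replicate 1 alone, -0.01 on KO replicate 2 alone, -0.14 without WT replicate 1 and -0.42 without WT replicate 2. The broad median was 0.21 and the restricted one -0.04 after centring on epithelial markers.

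KO signals lay wholly outside the WT range for 13 of the 21 tested member probe sets, below it for 11 and above it for 2. Over all tested probe sets this held for 51.9% (28.0% lower and 23.9% higher), so separation of the arrays alone says little about a member. The 11 include the dimmest tested Ehf and Ets1 probe sets, which reached the test's limit only through WT.

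Ets2, a factor downstream of growth factor and ERK signals, was the broadly expressed gene whose brightest probe set separated downwards. That probe set (1416268_at) read 3396 and 3799 in WT and 2478 and 2769 in KO, 72.9% of the WT mean. The difference of -0.45 had an interval of -0.77 to -0.14 and did not pass (limma adjusted p = 0.131). Another Ets2 probe set (1447685_x_at) gave -0.28, and centring on epithelial markers left -0.09 at the brightest. The remaining one (1437809_x_at) lay between 11.0 and 22.7 and was not tested.

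The 4 Ets1 probe sets all gave negative differences, and none passed. The bright pair gave differences of -0.16 (1452163_at, limma adjusted p = 0.629) and -0.40 (1426725_s_at, adjusted p = 0.215). The brightest read 2044 and 2442 in WT and 2194 and 1809 in KO, so its groups overlapped. The dim pair gave -0.80 (1422027_a_at, limma adjusted p = 0.144) and -0.97 (1422028_a_at, adjusted p = 0.0801). The dimmest read 179 and 195 in WT and 76.2 and 99.3 in KO, with no overlap, and reached the test's limit only through WT. In the annotation each pair has its own source sequence record, shared by its 2 members, and which transcripts each reads was not analysed here. Lymphocytes are rich in Ets1. The summed signal of 10 T cell markers was 923 and 1062 in WT and 522 and 797 in KO, that of 7 B cell markers 509 and 1066 in WT and 395 and 320 in KO, and the part of these cells in the Ets1 signal was not tested. Of these 17 lymphocyte markers only Cd3e was bright enough to be tested. It read 192 and 404 in WT and 28.1 and 353 in KO, so the gap between the KO replicates in the T cell sum comes from Cd3e. The 12 endothelial markers tested had 0 calls in either direction and a median of 0.13.

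Etv5 varied more between the WT arrays than between genotypes. Its brightest probe set (1428142_at) read 883 and 2013 in WT and 852 and 987 in KO. The other tested ones read 269 and 795 against 346 and 411 (1450082_s_at), and 202 and 600 against 205 and 222 (1420998_at). WT replicate 2 was the high array at all 3. The other 3 arrays lay close together at 1428142_at and 1420998_at, while at 1450082_s_at both KO arrays lay above WT replicate 1. WT replicate 1 minus replicate 2 was -1.17, -1.51 and -1.50 on the log2 scale, and 248 of all 22519 tested probe sets differed by more than 1 between these arrays. The KO minus WT difference at the brightest was -0.53 with an interval of -1.37 to 0.30 (limma adjusted p = 0.456). It was 0.05 without WT replicate 2 and -1.12 without WT replicate 1, with no call in either case (limma adjusted p = 0.954 and 0.0720). Etv4, the close relative of Etv5, showed the same high array, with 184 and 531 in WT and 188 and 337 in KO.

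No tested probe set of the widely expressed Elf branch passed in either direction. Elf1, a regulator in lymphoid and endothelial cells, read 859 and 890 in WT and 981 and 942 in KO at its brightest probe set (1417540_at), a difference of 0.13 with an interval of -0.20 to 0.46 (limma adjusted p = 0.649). Its other probe set (1439319_at) gave -0.26. Elf2 read 1040 and 1219 in WT and 967 and 1089 in KO (1418275_a_at), a difference of -0.13 with an interval of -0.50 to 0.24 (limma adjusted p = 0.692). Its second probe set (1428045_a_at) gave -0.33 (limma adjusted p = 0.355). Its dimmest (1418276_at), at 61.4 or less on every array, gave -0.57 and was not tested. At both of these the KO arrays lay below both WT arrays. Elf4, which is known from T and natural killer cells, was dim, with 100 and 168 in WT and 136 and 144 in KO (1421338_at), and differed by 0.09 with an interval of -0.56 to 0.75. Its other probe set (1421337_at) lay between 66.6 and 89.2 and was not tested. At their brightest probe sets the intervals of Elf1, Elf2 and Elf4 lie wholly above -0.72, the upper bound of the Elf5 interval. Those of Ets2 and Etv5 reach below it. The intervals of the second Elf1 and Elf2 probe sets do so too, reaching -0.85 and -0.74. For Ets1 the interval at the brightest probe set lies above that bound, and those of the dim pair reach below it.

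The rest of the ETS family was read from a list of 16 further genes, of which 14 were on the array and 11 were tested. Of these 1 fell and 0 rose, and their median difference was -0.08. The one that fell was Etv6, a transcriptional repressor of the family, which read 1539 and 1579 in WT and 869 and 837 in KO (1434880_at). KO differed by -0.86 there (SE 0.13, limma adjusted p = 0.0369) and by -0.70 at a dimmer probe set, which did not pass (adjusted p = 0.105). Without WT replicate 1 or 2 Etv6 was no longer called (adjusted p = 0.110 and 0.189), nor after centring on epithelial markers (-0.50, adjusted p = 0.614). Over the whole family 24 genes were on the array and 21 tested, 3 of them called lower (Ehf, Elf5 and Etv6), beside 1.36% of all tested genes. Of the 21, 17 differed by less than 0.5 in either direction, a share that was not computed for all genes.

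**Figure D4:**
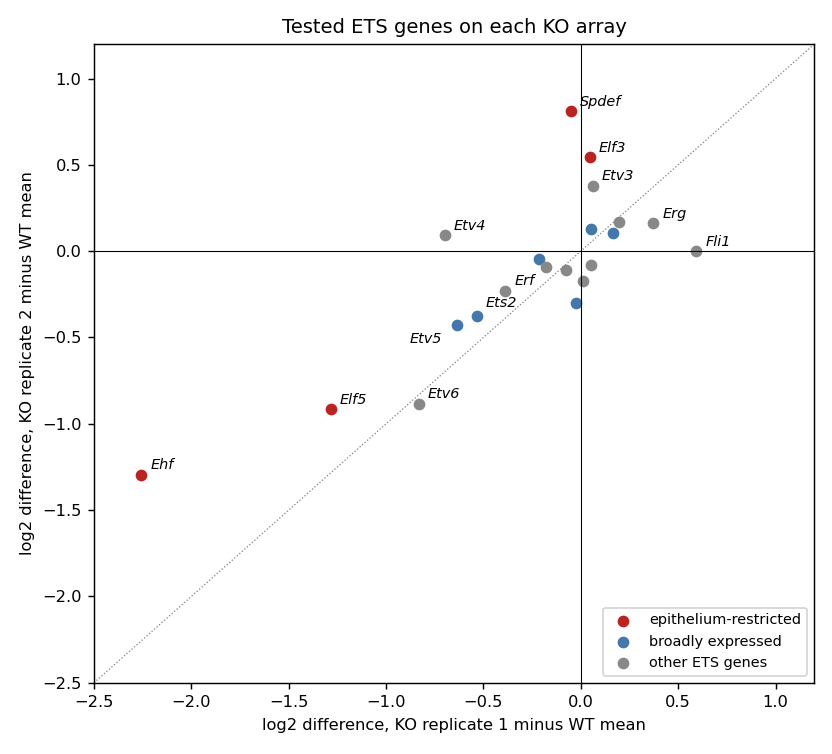
Log2 difference from the WT mean on KO replicate 1 (horizontal axis) and KO replicate 2 (vertical axis) for the 21 tested ETS genes, by brightest probe set, with the dotted line marking equal values. Ehf and Elf5 lie far below 0 on both axes, and Etv6 lies at -0.83 and -0.88. On this scale, without centring on epithelial markers, Elf3 and Spdef are raised on KO replicate 2 alone.

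Member genes sit beside other ETS genes on chromosomes 2, 9 and 16, which allowed a look at their immediate neighbours, chosen after the values of the members were seen. In the RefSeq gene order Ehf and Elf5 are next to each other on chromosome 2, flanked by Apip and Cat. Apip, an enzyme of methionine salvage, read 1251 and 1182 in WT and 1348 and 1350 in KO, a difference of 0.15 (limma adjusted p = 0.598). Cat, the gene of catalase, differed by 0.33 and 0.24 at its 2 probe sets (adjusted p = 0.198 and 0.338). The flanking genes were thus not called, while both ETS genes between them fell. Ets1 lies next to Fli1 on chromosome 9, and Fli1, a factor of endothelium and blood, differed by 0.30 at its brighter probe set (limma adjusted p = 0.565). Kirrel3, on the other side of Ets1, lay under the test's limit by its mean over the arrays and was not tested. Its brightest probe set (1431402_at) read 195 and 175 in WT and 47.2 and 93.3 in KO, a difference of -1.27. Its dimmer probe sets gave -0.65 and -0.12. Ets2 lies next to Erg on chromosome 16, and Erg, an endothelial factor, differed by 0.27 at its brighter probe set (limma adjusted p = 0.451). Its dimmer one (1425370_a_at), not tested, read 23.3 and 72.1 in WT and 111 and 88.7 in KO, a difference of 0.97. Psmg1, on the other side of Ets2, differed by -0.04 (limma adjusted p = 0.916).

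The route that leads from the prolactin receptor to Elf5 was examined through 10 genes, of which 9 were on the array under these names (Prlr was not matched) and 8 tested. None was called in limma (0 lower and 0 higher, with 3 at an unadjusted p under 0.05, Jak2, Stat5a and Stat5b), and the median was -0.07. Stat5a and Stat5b differed by -0.79 and -0.78 (limma adjusted p = 0.246 and 0.102), and Jak2, the kinase at the receptor, by 0.36 (adjusted p = 0.221). Socs2 and Cish, feedback inhibitors induced by STAT5, differed by 0.15 and -0.36 (adjusted p = 0.607 and 0.537). Among 10 FGF and ERK feedback genes, the surroundings of Etv5, all were tested and 0 were called, with a median of 0.06. The largest differences were those of the receptor genes Fgfr1 (0.49, adjusted p = 0.126) and Fgfr2 (0.38, adjusted p = 0.291).

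Genes described as targets of the restricted factors were sparsely measured. Of 10 listed 9 were on the array and 4 tested, with 0 calls and a median of -0.24. Creb3l1 differed by -0.54 (limma adjusted p = 0.150) and Snai2, a repressor of epithelial genes that Elf5 is known to restrain, by -0.42 (adjusted p = 0.141). Wap, a milk protein gene activated through ETS sites, lay between 31.5 and 61.9 on all arrays and was not tested. Of 12 milk genes 8 were tested, 5 were called lower and 0 higher. Csn1s1 read 10274 and 11025 in WT and 37.1 and 35.6 in KO, Csn2 read 9343 and 9658 against 122 and 83.3, and Btn1a1 read 730 and 679 against 77.4 and 94.3. These genes reached the test's limit only through WT, so their call describes that choice too, and the size of their fall is not measured where the KO signal cannot be placed above background. The median over the 8 tested genes was -2.05, but -0.95 over all 12 and -0.79 with the stricter filter.

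Markers of the cell populations that hold these factors moved unevenly. Of 11 tested luminal progenitor markers, a list that here holds no ETS gene, 2 fell (Rspo1 at -3.56 and Csn3, which the milk list also holds, at -1.26) and 1 rose (Ltf at 3.73), with a median of -0.13 (-0.27 and -0.48 on KO replicates 1 and 2). Of 7 tested hormone-sensing markers Cited1 fell (-2.59) and Foxa1 rose (1.08), with a median of -0.26 that was -0.70 on KO replicate 1 and 0.00 on KO replicate 2. Of 14 tested basal markers Oxtr fell (-0.89) and 0 rose, with a median of -0.34 that was -0.80 on KO replicate 1 and -0.06 on KO replicate 2. Macrophage markers (10 tested, median 0.31) and adipocyte markers (9 tested, median 0.15) had 0 calls. Of 10 tested fibroblast markers Fbln1 rose (1.02) and 0 fell, with a median of 0.02.

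The calls of Elf5 and Ehf did not survive every way of processing the values, though all of their differences stayed negative. The difference at the 2 Elf5 probe sets ran from -1.37 to -0.74 over 12 alternatives and passed in 7 of the 12 at each. The 3 Ehf probe sets ran from -2.39 to -1.29 and passed in 7 of 12, 10 of 12 and 8 of 11 alternatives. Both genes lost all calls when probe sets of any brightness were tested (limma adjusted p = 0.0905 to 0.125, where 38 probe sets in all were called). With either KO array left out all 5 passed, but the spread then comes from the WT pair alone, and the lone KO array is assumed to vary like it.

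**Figure D5:**
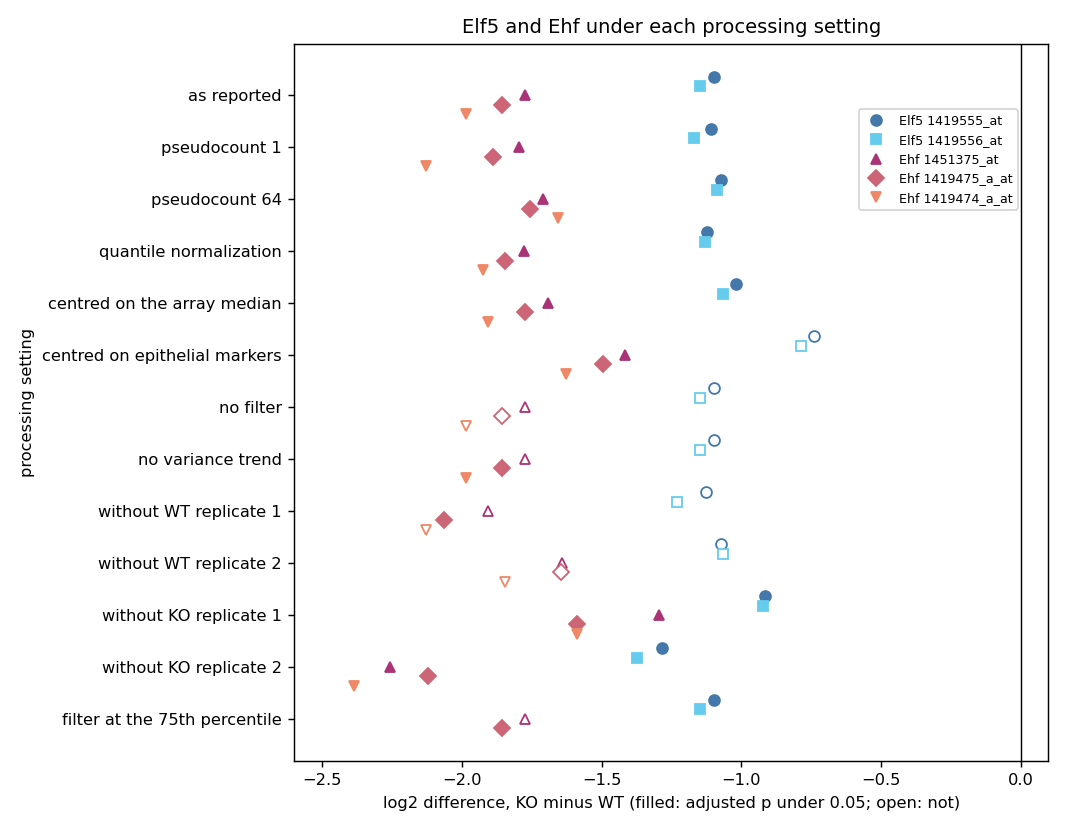
Log2 difference (KO minus WT) of the 2 Elf5 and 3 Ehf probe sets under each processing setting, one row per setting, filled where the adjusted p was under 0.05 and open where it was not. All points lie below 0, between -2.39 and -0.74, and the rows with no filter and without WT replicate 2 hold open points only.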

How the data were processed

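Gene expression was measured in mouse mammary tissue on 2 WT and 2 KO arrays. The authors deposited intensities, one linear value for each probe set, which the submitters' processing notes credit to MAS5 (version and settings not given in the sources used here). The mean after trimming 2% from each end was 500 on every array, so a common scaling is carried in the values. No detection calls were used. Of 45101 probe sets 64 controls were left out, and by the platform annotation 34945 carried 1 gene symbol, 932 several and 9160 none that was used here. Entrez identifiers were looked up in RefSeq (34741 matched, 0 changed).

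KO was compared with WT in limma 3.58.1 (R 4.3.3) on log2(signal + 16), with a variance trend, over 22519 probe sets. For values per gene the brightest probe set (mean log2) was taken. Genotype came from the labels, and replicates were numbered in order of deposit, without pairing. The fit was tested on simulated data. Outside the members, each list's 3 strongest calls at most were named, or, without a call, its 2 tested genes of greatest difference, plus STAT5 route and ETS genes that a sentence on the members needed. Wap, Cldn4, Tjp3, Prss8 and the neighbouring genes were added after their values were seen. The members and lists were chosen with earlier results of these data known. The lists cover cell types, pathways and other ETS genes, and were described without a list test. The number of arrays limits the precision. Promoter sequences are from RefSeq (GRCm38.p6).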

Additional observations from a re-analysis of the deposited data

How the results depend on the processing

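The 450 called probe sets became 38 with no filter, 182 with a filter at the 75th percentile and 205 without a variance trend, and 67 to 1021 with one array left out. The 5 member calls became 3 after centring on epithelial markers, 0 with no filter, 3 with the 75th percentile filter and 2 without a variance trend, and 0 to 5 with one array left out. The difference between the restricted and broad medians of -0.25 became -1.27 with the 75th percentile filter, where only Elf5 and Ehf of the restricted genes were tested, -0.78 when probe sets were averaged per gene, where Spdef and Elf4 were not tested, and -0.55 to -0.01 with one array left out. Calls among genes of the other lists moved from 18 to 6 with no filter, 10 with the 75th percentile filter, 8 without a variance trend and 9 when probe sets were averaged per gene, and to between 8 and 41 with one array left out. On that average Elf5 was called (adjusted p = 0.0458) and Ehf was not (-1.32, adjusted p = 0.0802), its dim probe set being averaged in. A pseudocount of 1 or 64, quantile normalization and median centring kept all 5 member calls. No paired analysis was possible because the labels give the animals no shared replicate numbers. Dim members (Spdef, Elf4) are limited by signal over background, which could not be placed.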
